A study of Mus musculus with 20 samples.

Results

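The genes described here are the core of the RNA interference machinery in mouse liver: Drosha and Dgcr8, Dicer1, the Argonaute genes Ago1, Ago2, Ago3 and Ago4, and Tnrc6a, Tnrc6b and Tnrc6c. They were found by symbol, as all probes of the array whose single gene symbol is one of these names, and 8 of the 10 genes had such a probe. Their 10 probes, of 23493 on the array, comprise 3 probes for Tnrc6a and 1 for each of the other 7 genes. Ago2 and Ago3 were not analysed here.

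Small RNAs silence mRNAs through a chain of proteins. In the nucleus Drosha, an RNase III enzyme, and its RNA-binding partner Dgcr8 cut hairpins out of primary microRNA transcripts, and in the cytoplasm Dicer1 cuts the hairpins into short duplexes. An Argonaute protein keeps 1 strand of the duplex as a guide, and proteins of the Tnrc6 family, also called GW182, bind Argonaute and bring in the enzymes that shorten the poly(A) tail and stop translation. A synthetic siRNA is already a short duplex, so that it enters this chain at Argonaute, beyond the step of Drosha and Dgcr8.

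The study compared the livers of 20 mice in 5 groups of 4. Each mouse of the PPARa-M siRNA, PPARa siRNA, SEAP-M control siRNA and GL3 control siRNA groups received 40 µg of its siRNA in Ringer's solution, and the vehicle mice received Ringer's solution alone, all by hydrodynamic tail vein injection, in which a large volume is pushed into the vein within seconds and carries nucleic acid into liver cells. Livers were taken 48 h later. PPARa-M and PPARa siRNAs are directed to different stretches of the mRNA of Ppara, a nuclear receptor that governs fatty acid oxidation, whereas the control siRNAs are directed to 2 reporters that mice lack, secreted alkaline phosphatase and GL3. The labels do not say what the suffix -M stands for, and the siRNA sequences were not used here, so that suffix and siRNA sequence cannot be told apart in any comparison below. The labels also carry running numbers that go by group, and what these numbers stand for is not given. Both -M groups have higher numbers than both siRNA groups without the suffix. An effect of that order cannot be told apart from the treatment or the suffix. The strain, sex and age of the mice are not given in the sources used here.

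Each liver had a 2-colour oligonucleotide array of its own, on which the second RNA was a pool made from 4 vehicle livers. A probe reads out as mouse over pool on the log10 scale, so that 0 is the level of the pool. Ratios give no level of a gene, and the labelled tissue could not be checked by the level of its markers. The direction of the ratio and the log base are not written in the files. They were taken from the sample titles and from the limits of the table at -2 and 2, and under this reading Ppara was lower in the Ppara siRNA mice, with a mean log10 ratio of -0.215 ± 0.0681 in PPARa-M, -0.0736 ± 0.0681 in PPARa, 0.0529 ± 0.131 in SEAP-M, 0.0296 ± 0.0279 in GL3 and 0.0174 ± 0.0456 in vehicle livers (SD, n = 4 each, mean of 4 probes). The spread of the ratios over all probes was also wider with PPARa-M siRNA, with an interquartile range of 0.0919 ± 0.0226 on the log10 scale, against 0.0663 ± 0.0102 with PPARa, 0.0649 ± 0.0146 with SEAP-M, 0.054 ± 0.00673 with GL3 and 0.0532 ± 0.006 with vehicle (SD, n = 4 each). Differences between groups are given on the log2 scale, with the standard error (SE) and the Benjamini-Hochberg adjusted p of limma over all 23493 probes and a threshold of 0.05. In bulk liver RNA, fewer cells of a type and less RNA per cell cannot be told apart.

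The Tnrc6 genes, the adaptor end of the pathway, differed most among the groups. Tnrc6b and all 3 probes of Tnrc6a passed the F test over the 5 groups. These were 4 of the 10 probes, from 2 genes, where 6.6% of all probes passed. Tnrc6c (adjusted p = 0.0685), Dicer1 (0.0848), Dgcr8 (0.142), Drosha (0.261), Ago4 (0.506) and Ago1 (0.808) did not pass.

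**Figure D1:**
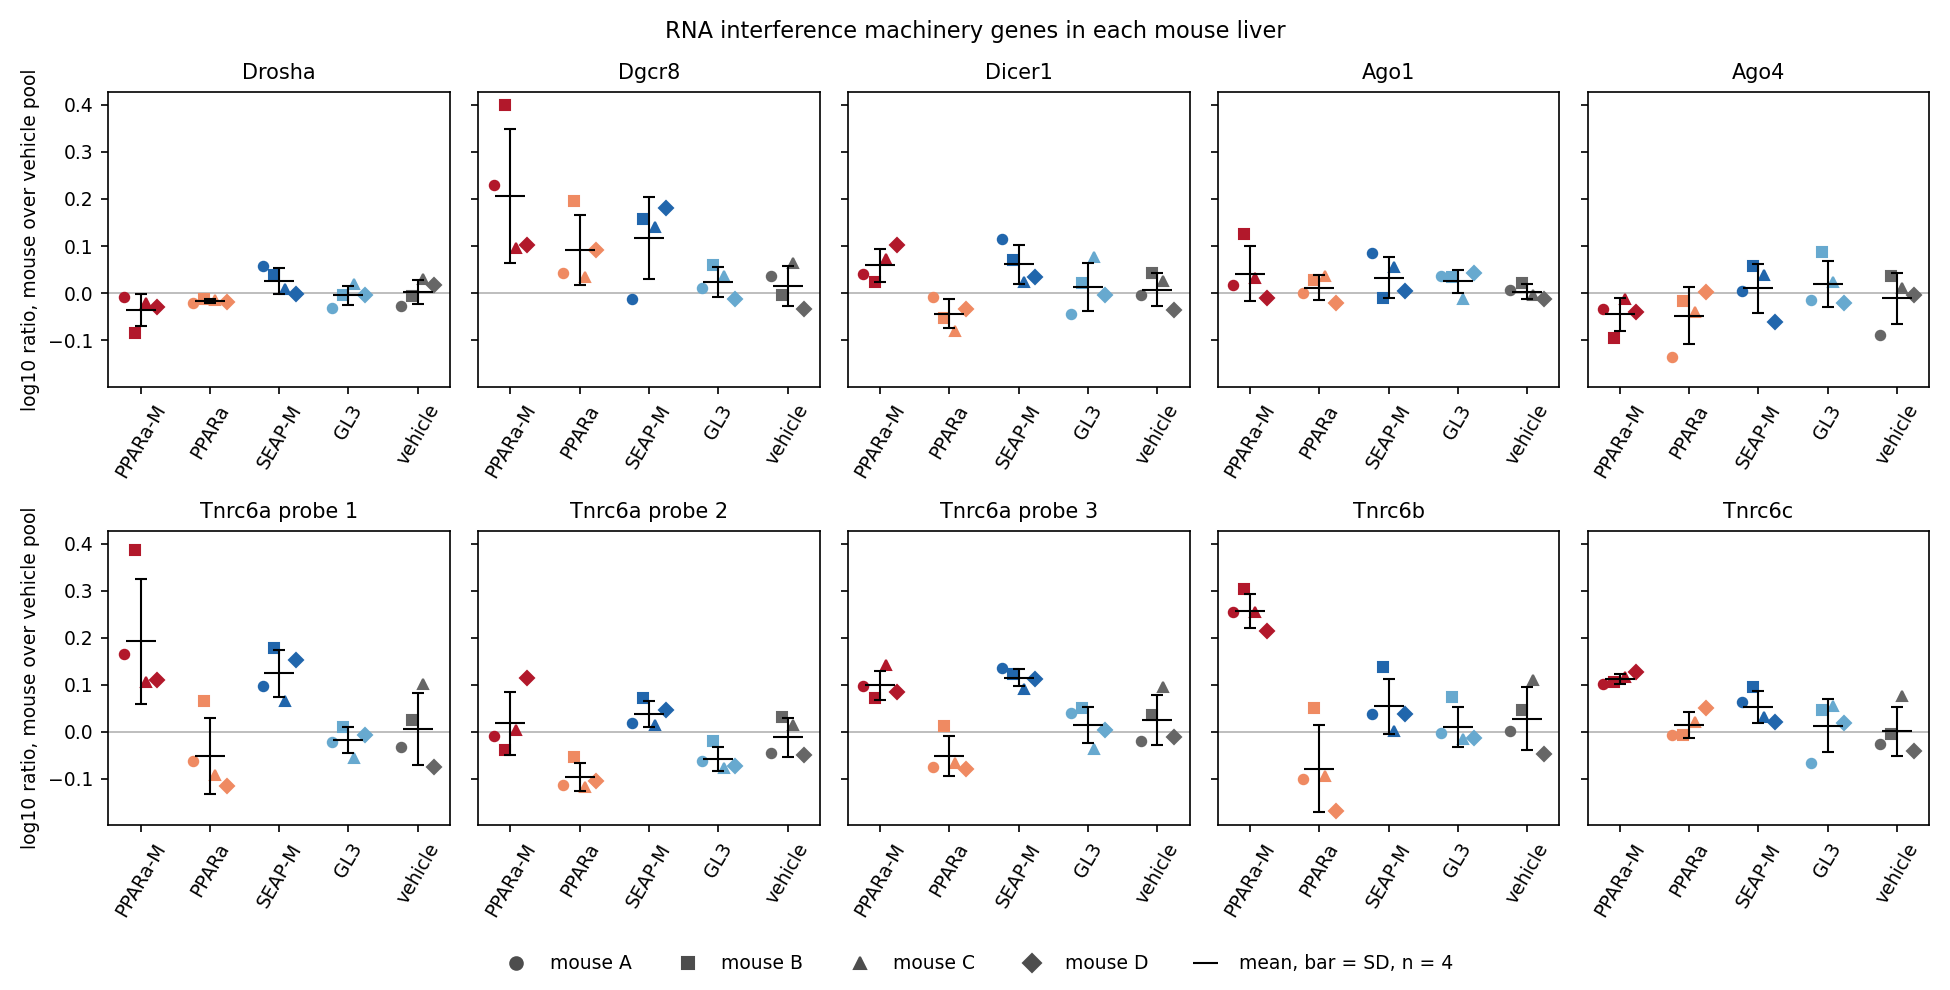
Log10 ratio of mouse to vehicle pool (vertical axis) of the 10 probes in each of 20 mice, by group along the horizontal axis; symbols are mice A to D, and the bar is the mean with its SD (n = 4). Tnrc6b in the 4 PPARa-M mice lies between 0.215 and 0.304, above every other mouse, whereas Drosha, Ago1 and Ago4 lie between -0.136 and 0.125 in all 20 mice.

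Tnrc6b had the largest difference of any member probe. Its log10 ratio was 0.255, 0.304, 0.254 and 0.215 in the PPARa-M livers A to D, against -0.1004, 0.0504, -0.0945 and -0.168 in the PPARa livers. With the control siRNAs it was 0.0383, 0.138, 0.002 and 0.037 in SEAP-M livers and -0.0018, 0.0733, -0.0149 and -0.013 in GL3 livers, and the vehicle livers gave 0.0028, 0.0459, 0.111 and -0.0477. The 4 PPARa-M mice were above all 16 other mice, and 3 of the 4 PPARa mice were below all 4 vehicle mice. PPARa-M minus PPARa was a log2 difference of 1.11 (SE 0.14, 2.16-fold, limma adjusted p = 0.000127), and PPARa-M minus vehicle was 0.76 (SE 0.14, 1.69-fold, adjusted p = 0.00604). PPARa minus vehicle was -0.35 (SE 0.14, adjusted p = 0.686) and did not pass.

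The difference by suffix in Tnrc6b was larger in the Ppara siRNAs than in the control siRNAs. SEAP-M minus GL3 was 0.14 for Tnrc6b (SE 0.14, 95% interval -0.15 to 0.44), and the 2 suffix differences themselves differed by 0.97 (SE 0.20, 95% interval 0.56 to 1.39, adjusted p = 0.0181). Tnrc6b was the 1 member of 10 that passed this test of the difference, where 1.67% of all probes passed. For Dicer1, Tnrc6c and the 3 Tnrc6a probes the difference of the differences was between 0.06 and 0.34, with 95% intervals that include 0. The test for Tnrc6b lost its call when the arrays were brought to one spread, with 0.63 (adjusted p = 0.262) after quantile normalization and 0.70 (adjusted p = 0.185) after scaling to one interquartile range, and without GL3 mouse B (0.90, adjusted p = 0.0506).

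Tnrc6a, read by 3 probes to different deposited transcripts, was higher with the -M siRNAs over both pairs taken as one comparison. Probe 3 gave 0.0966, 0.0713, 0.142 and 0.0856 in PPARa-M livers, against -0.0744, 0.0117, -0.0671 and -0.0779 in PPARa livers. It gave 0.135, 0.123, 0.0908 and 0.113 in SEAP-M livers, against 0.0396, 0.0507, -0.0359 and 0.0042 in GL3 livers, and -0.0192, 0.0351, 0.0948 and -0.0108 in vehicle livers. The 8 mice with an -M siRNA were all above the 8 mice with the other siRNAs, while 1 vehicle mouse, C, lay within the -M range. The log2 difference of the -M siRNAs from those without the suffix was 0.42 (SE 0.06, 1.34-fold, adjusted p = 0.00209).

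The other Tnrc6a probes had the same direction in the suffix comparison and differed in size. Probe 1 gave 0.165, 0.386, 0.107 and 0.11 in PPARa-M livers, against -0.0627, 0.0656, -0.0926 and -0.115 in PPARa livers. It gave 0.0977, 0.177, 0.0661 and 0.154 in SEAP-M livers, against -0.0213, 0.0113, -0.0548 and -0.0059 in GL3 livers, and -0.0324, 0.0252, 0.102 and -0.0743 in vehicle livers. The -M mice were above the mice given the other siRNAs, the lowest at 0.0661 against a highest of 0.0656, and PPARa-M mouse B stood well above the rest. The array of this mouse had the widest spread of the 20 over all probes. Its interquartile range was 0.1245 on the log10 scale, against 0.0735 to 0.089 in the other PPARa-M mice. The suffix difference of probe 1 was 0.64 (SE 0.13, adjusted p = 0.00653). Probe 2 ran from -0.0386 to 0.115 in PPARa-M livers and from -0.116 to -0.0528 in PPARa livers. It ran from 0.0136 to 0.0712 in SEAP-M livers, from -0.0758 to -0.0197 in GL3 livers and from -0.0497 to 0.0326 in vehicle livers. Its suffix difference was 0.35 (SE 0.07, adjusted p = 0.00614), with overlap between the mice with and without the suffix. Against vehicle, probe 2 was 0.10 with PPARa-M, 0.16 with SEAP-M, -0.28 with PPARa and -0.15 with GL3, and none of these passed. Within the control siRNAs, SEAP-M minus GL3 was 0.47, 0.32 and 0.33 for probes 1, 2 and 3, with unadjusted p of 0.0176, 0.00424 and 0.00178 and adjusted p of 0.369, 0.262 and 0.208, so that no Tnrc6a probe passed in that pair.

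Tnrc6c, the third GW182 gene, was even among the PPARa-M mice. Its log10 ratio was 0.102, 0.106, 0.116 and 0.126 in the PPARa-M livers, against -0.0073, -0.0063, 0.0215 and 0.0508 in the PPARa livers. It was 0.0625, 0.0958, 0.0318 and 0.0217 in SEAP-M livers, against -0.0664, 0.0471, 0.0548 and 0.0183 in GL3 livers, and -0.026, -0.0039, 0.0753 and -0.0413 in vehicle livers. All 4 PPARa-M mice were above every other mouse, by a small margin. PPARa-M minus vehicle was 0.37 (SE 0.09, 1.29-fold, adjusted p = 0.0257) and PPARa-M minus PPARa was 0.33 (SE 0.09, adjusted p = 0.0327).

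Dgcr8, the RNA-binding subunit of the Microprocessor, had the widest spread within the PPARa-M group. Its log10 ratio was 0.229, 0.399, 0.0956 and 0.102 in PPARa-M livers, against 0.0426, 0.195, 0.0339 and 0.092 in PPARa livers. It was -0.0117, 0.157, 0.1398 and 0.181 in SEAP-M livers, against 0.0118, 0.0606, 0.0361 and -0.0135 in GL3 livers, and 0.0353, -0.005, 0.0647 and -0.033 in vehicle livers. Every PPARa-M mouse was above every vehicle mouse, with a log2 difference of 0.63 (SE 0.19, 1.55-fold, adjusted p = 0.049). This SE rests on 1 spread shared by all 5 groups, while the log10 SD of Dgcr8 was 0.142 in PPARa-M and 0.0431 in vehicle livers. With PPARa-M and vehicle mice fitted alone, 0 member probes passed. In the shared fit without PPARa-M mouse B, the difference of Dgcr8 from vehicle was 0.42 (adjusted p = 0.15). That of Tnrc6a probe 1, 0.62 (SE 0.18, adjusted p = 0.0453), was 0.41 (adjusted p = 0.132) without this mouse. The suffix difference of Dgcr8 was 0.35 (SE 0.13, 95% interval 0.07 to 0.62, adjusted p = 0.112).

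Drosha, the catalytic subunit of the same complex, stayed close to the pool in every group. It ran from -0.0849 to -0.0093 in PPARa-M livers, from -0.0208 to -0.0117 in PPARa livers, from -0.0028 to 0.0583 in SEAP-M livers, from -0.0307 to 0.0202 in GL3 livers and from -0.0283 to 0.0305 in vehicle livers. No comparison of Drosha passed, and the suffix difference was 0.02 (95% interval -0.08 to 0.12). Across the 20 arrays, Pearson's r of Drosha with Dgcr8 was -0.488, the lowest among all pairs of member probes, as a description over arrays that share the vehicle pool.

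Dicer1, which makes the short duplexes, was higher with PPARa-M than with PPARa siRNA. Its log10 ratio was 0.0396, 0.0226, 0.0727 and 0.102 in PPARa-M livers, against -0.0076, -0.053, -0.0802 and -0.0347 in PPARa livers. It was 0.115, 0.0701, 0.0236 and 0.0352 in SEAP-M livers, against -0.0435, 0.0212, 0.0777 and -0.0049 in GL3 livers, and -0.0032, 0.0428, 0.0257 and -0.0356 in vehicle livers. The Ppara siRNA groups did not overlap, and the difference between them was 0.34 (SE 0.09, 1.27-fold, adjusted p = 0.0246), while neither group passed against vehicle, at 0.17 (adjusted p = 0.276) for PPARa-M and -0.17 (adjusted p = 0.909) for PPARa. The difference between the Ppara siRNAs lost its call after quantile normalization (0.31, adjusted p = 0.108) and after scaling to one interquartile range (0.32, adjusted p = 0.0974).

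The Argonaute genes measured, Ago1 and Ago4, which hold the guide strand, passed in no comparison. Ago1 ran from -0.0101 to 0.125 in PPARa-M livers, from -0.0204 to 0.0371 in PPARa livers, from -0.0111 to 0.0848 in SEAP-M livers, from -0.0117 to 0.0423 in GL3 livers and from -0.0132 to 0.0223 in vehicle livers. Its suffix difference was 0.06 (95% interval -0.07 to 0.19). Ago4 ran from -0.0954 to -0.0131 in PPARa-M livers, from -0.136 to 0.0021 in PPARa livers, from -0.0615 to 0.0578 in SEAP-M livers, from -0.0207 to 0.0864 in GL3 livers and from -0.0879 to 0.0358 in vehicle livers. Its suffix difference was -0.01 (95% interval -0.18 to 0.16).

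Counted over the 10 probes, the suffix comparison gave the following. The -M siRNAs were set against those without the suffix over 8 mice each, and 6 probes passed, all higher: the 3 of Tnrc6a, Tnrc6b (0.63), Dicer1 (0.25) and Tnrc6c (0.23), where 8.75% of all probes passed. The median of the 10 probes was 0.30, against -0.01 for all probes. In 2 of them, probes 1 and 3 of Tnrc6a, the 8 -M mice were all above the 8 others, as they were in 0.315% of all probes. The 6 probes that passed come from 4 genes. The members were chosen with earlier results of these data known, so these counts are a description and not an independent test.

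The same comparison was made within each pair of siRNAs. PPARa-M against PPARa gave 6 probes of 4 genes that passed, all higher, where 10.2% of all probes passed. In all 6 the groups did not overlap, as in 7.41% of all probes. SEAP-M against GL3 gave 0 of 10, where 0.0% of all probes passed. At an unadjusted limma p under 0.05 stood 1129 probes higher and 1220 lower of all 23493, and 3 of the 10 member probes. These were the 3 probes of Tnrc6a, and in each the 4 SEAP-M mice were above the 4 GL3 mice, as in 4.15% of all probes. The median over the members was 0.36 in the first pair and 0.15 in the second, and 9 of 10 differences were above 0 in each. Under array quality weights Tnrc6a probe 3 also passed in the control pair. Over the settings that kept all mice and the threshold, the calls of this pair over all probes ran from 0 to 231.

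**Figure D2:**
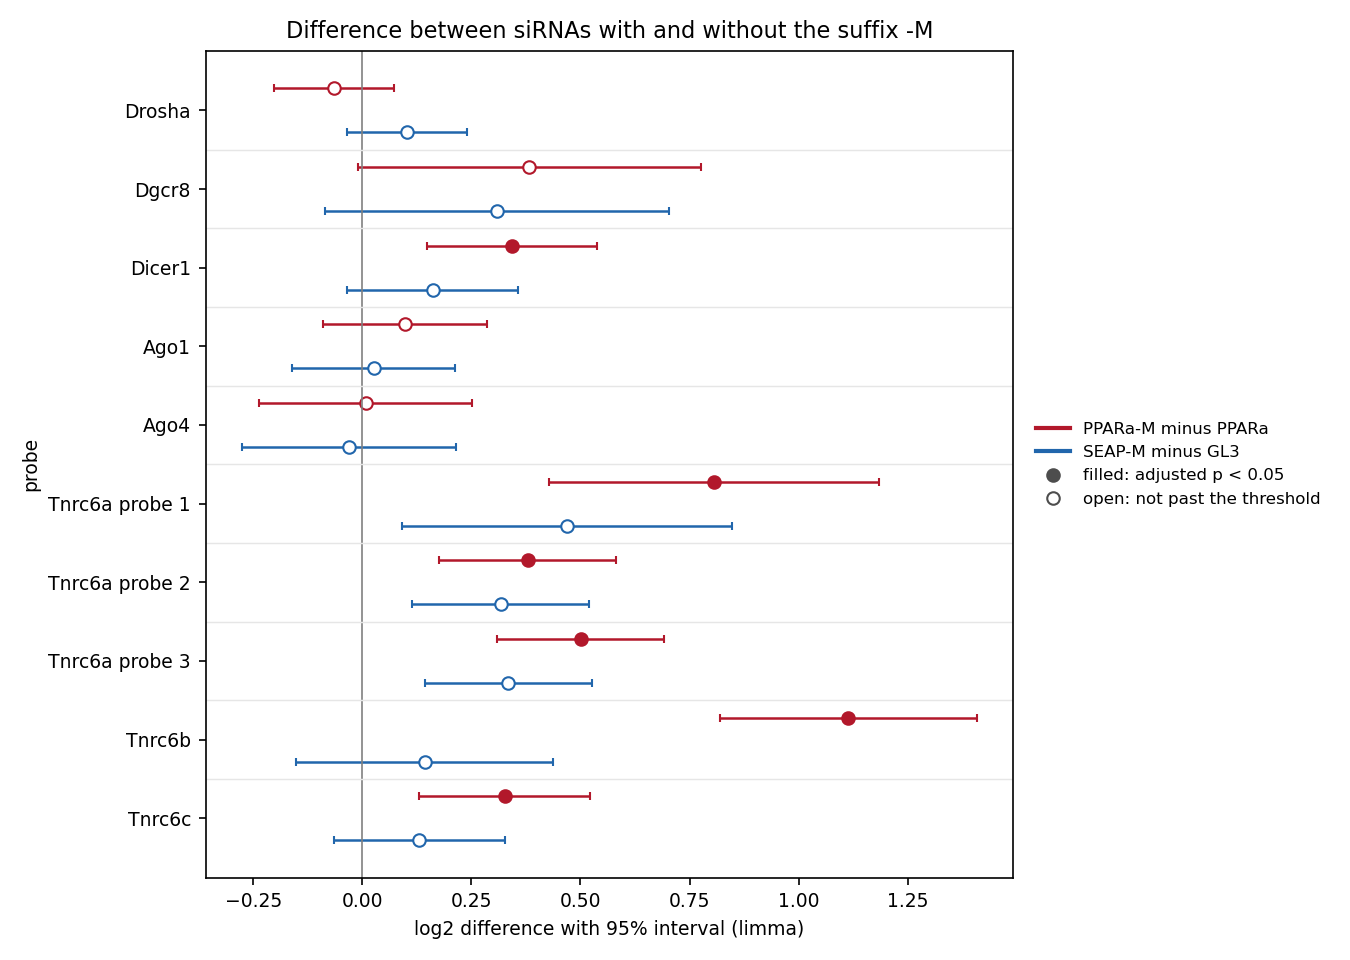
Log2 difference (horizontal axis, with 95% limma interval) of PPARa-M minus PPARa in red and SEAP-M minus GL3 in blue, for each of the 10 probes; filled circles passed an adjusted p of 0.05. Tnrc6b stands at 1.11 in the Ppara pair and 0.14 in the control pair, while the Tnrc6a probes lie above 0 in both pairs.

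Against vehicle, no member passed with the siRNA groups averaged. The mean of the 4 siRNA groups minus vehicle passed for 0 of 10 probes, where 0.00851% of all probes passed. At an unadjusted limma p under 0.05 stood 2 members, Dgcr8 (0.31) and Tnrc6c (0.16), and of all 23493 probes 523 higher and 645 lower. Of the single groups, which share the 4 vehicle mice, PPARa-M gave 4 of 10, all higher (Tnrc6b, Tnrc6c, Tnrc6a probe 1 and Dgcr8), where 6.83% of all probes passed. In these 4 the PPARa-M and vehicle mice did not overlap, as in 5.6% of all probes with PPARa-M higher. PPARa gave 0 of 10, where 0.166% of all probes passed, SEAP-M gave 0, where 0.00426% passed, and GL3 gave 0, where 0.00851% passed. The counts at an unadjusted p under 0.05 were 3, 2 and 0 in these last groups. Over all probes they were 577 higher and 863 lower for PPARa, 699 and 611 for SEAP-M, and 286 and 356 for GL3. For PPARa the 3 were Tnrc6b and Tnrc6a probes 2 (-0.28) and 3 (-0.255), all below vehicle, and for SEAP-M the 2 were Tnrc6a probes 1 (0.39) and 3 (0.30), both above it.

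The 4 calls of PPARa-M against vehicle were lost when the arrays were brought to one spread, as were most calls over all probes. Of all 23493 probes, 1604 passed this comparison in the main fit and 19 after quantile normalization. Scaling to one interquartile range left few calls over all probes as well. Scaled to one interquartile range, Tnrc6b was 0.52 (adjusted p = 0.159), Dgcr8 was 0.40 (adjusted p = 0.272), Tnrc6a probe 1 was 0.41 (adjusted p = 0.244) and Tnrc6c was 0.29 (adjusted p = 0.247). In the suffix comparison the 3 Tnrc6a probes and Tnrc6b kept their calls under this scaling, at 0.54, 0.38, 0.38 and 0.51, while Tnrc6c and Dicer1 lost theirs. Over all probes the calls of the suffix comparison fell from 2056 to 920 after quantile normalization.

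**Figure D3:**
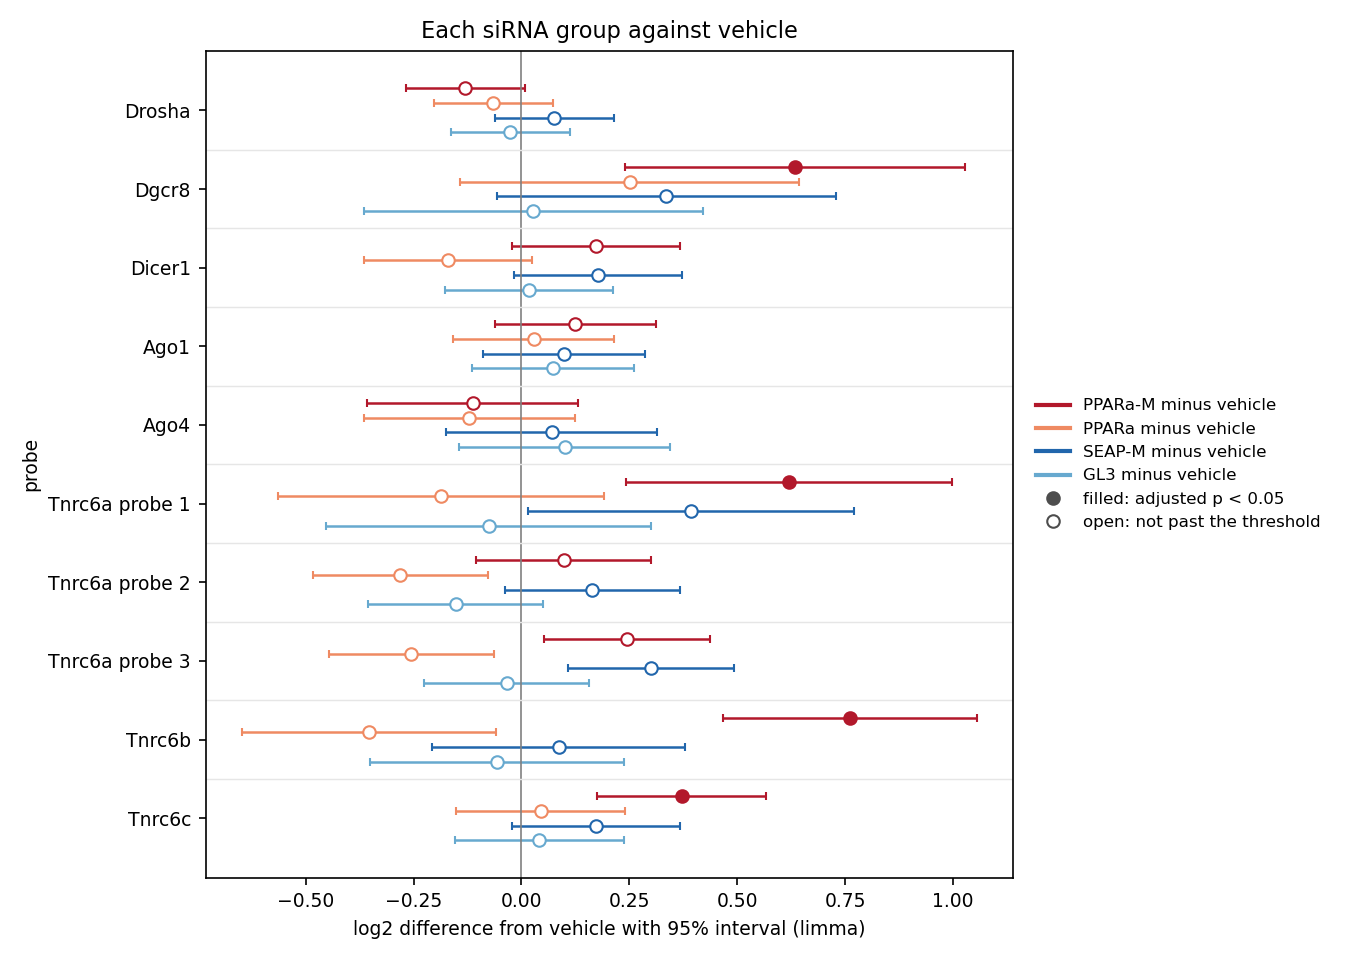
Log2 difference from vehicle (horizontal axis, with 95% limma interval) of each siRNA group for the 10 probes, groups as coloured; filled circles passed an adjusted p of 0.05. Filled circles are those of PPARa-M for Dgcr8 (0.63), Tnrc6a probe 1 (0.62), Tnrc6b (0.76) and Tnrc6c (0.37).

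The comparison of both Ppara siRNAs with both control siRNAs passed for 0 of 10 members, where 0.255% of all probes passed. At an unadjusted p under 0.05 stood Ago4 (-0.20), Tnrc6a probe 3 (-0.14) and Drosha (-0.12), with adjusted p of 0.368, 0.449 and 0.336. Over all probes 1095 were higher and 1459 lower at that unadjusted limma p.

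Across the 20 arrays, which share the pool, Pearson's r between Tnrc6b and Tnrc6a was 0.856, 0.61 and 0.748 for probes 1, 2 and 3. Between Dgcr8 and Tnrc6a it was 0.801 for probe 1, but 0.199 for probe 2 and 0.343 for probe 3. Tnrc6b had an r of 0.699 with Tnrc6c and 0.621 with Dgcr8. Tnrc6b, Dgcr8 and Tnrc6a probe 1 held the 3 largest differences of PPARa-M from vehicle, while Tnrc6a probes 2 and 3, at 0.10 and 0.245, did not pass there. The 250 bases upstream of the starts of these 3 genes (RefSeq, GRCm38.p6) are shown. Capitals mark the CCAAT box, the letters CCAAT on either strand, a short promoter element known to bind the factor NF-Y. The Tnrc6b window (chr15:80711063-80711312, plus strand, the first of 2 starts) and the Dgcr8 window (chr16:18289169-18289418, minus strand) hold 4 each, and the Tnrc6a window (chr7:123123635-123123884, plus strand) holds 0. The window of the second Tnrc6b start (chr15:80798360-80798609) holds 0 as well, as does that of Tnrc6c, which passed against vehicle in PPARa-M livers at 0.37. The window of Drosha, which passed in no comparison, holds 3.
Tnrc6b: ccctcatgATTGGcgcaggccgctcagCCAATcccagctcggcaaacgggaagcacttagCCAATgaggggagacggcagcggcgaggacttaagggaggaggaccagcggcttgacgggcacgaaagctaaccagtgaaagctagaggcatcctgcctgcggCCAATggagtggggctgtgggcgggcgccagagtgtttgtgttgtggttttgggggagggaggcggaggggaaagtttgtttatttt
Dgcr8: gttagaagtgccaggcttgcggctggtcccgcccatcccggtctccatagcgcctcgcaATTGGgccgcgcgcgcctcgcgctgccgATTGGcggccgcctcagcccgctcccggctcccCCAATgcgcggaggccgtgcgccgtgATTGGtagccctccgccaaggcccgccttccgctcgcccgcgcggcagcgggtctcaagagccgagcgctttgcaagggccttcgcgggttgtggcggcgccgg
Tnrc6a: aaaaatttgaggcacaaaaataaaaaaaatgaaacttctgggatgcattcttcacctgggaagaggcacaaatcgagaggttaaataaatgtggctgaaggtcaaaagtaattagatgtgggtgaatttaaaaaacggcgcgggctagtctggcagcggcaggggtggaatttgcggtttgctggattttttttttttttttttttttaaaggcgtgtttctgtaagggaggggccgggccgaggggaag
Of 32851 promoter windows of this length, 33.8% held CCAAT at least once on either strand, and the share with 4 was not counted. GGGCGG, the GC box, stood once in the Tnrc6b and once in the Dgcr8 window and was in 32.7% of all windows, and TATAAA, the TATA box, stood in none of the 3 and in 12.4% of all windows. The core of the interferon-stimulated response element, searched as GAAA, any 2 bases and GAAA on both strands, stood in none of the 3 and in 2.98% of all windows.

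The genes most like the 3 member probes with the smallest F test p were named by Pearson's r over the 20 arrays. Those nearest to Tnrc6b were Efl1, a GTPase of ribosome maturation (r = 0.949), 4833420G17Rik (0.948) and Bcl9, a coactivator of Wnt signalling (0.946). Those nearest to Tnrc6a probe 3 were Krba1 (0.875), Rnf169 (0.861) and Lime1 (0.857), and those nearest to Tnrc6a probe 1 were Pnisr (0.965), Taf15, an RNA-binding protein (0.959), and 4933405E24Rik (0.951). Their differences by suffix ran from 0.23 for Krba1 to 0.91 for Taf15, a direction that follows from how they were chosen.

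The partners of these proteins were counted from lists. Of 87 genes on lists of microRNA processing, export, Dicer partners, silencing, small RNA turnover and the interferon response, 67 had a probe. Among 16 measured silencing effectors, which remove the poly(A) tail or the cap of a bound mRNA, 4 were higher and 1 was lower in the suffix comparison, 5 of 20 probes, where 8.75% of all probes passed, with a median over the 20 of 0.04. The higher ones were Cnot10, a subunit of the deadenylase complex CCR4-NOT (0.46, SE 0.13, adjusted p = 0.0388), Dcp1a, of the decapping complex (0.28, adjusted p = 0.0185), Cnot4 (0.28, adjusted p = 0.00614) and Mov10, a helicase that binds Argonaute (0.22, adjusted p = 0.0289). The lower one, Cnot9 (-0.28, adjusted p = 0.0485), is the CCR4-NOT subunit that GW182 proteins contact, and it was named after its value was seen.

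Tut4, which adds uridines to the ends of microRNA precursors, was close to Tnrc6b in size. It was 1.05 higher in PPARa-M than in PPARa livers (SE 0.14, 2.07-fold, adjusted p = 0.000193), 0.58 higher in PPARa-M than in vehicle livers (adjusted p = 0.022), and its suffix differences differed between the pairs by 0.88 (SE 0.20, adjusted p = 0.0305). Eri1, a nuclease that degrades small RNA duplexes, was lower in PPARa-M than in PPARa livers by a log2 difference of -0.27 (adjusted p = 0.00591). Among 11 measured genes of small RNA turnover these were the only ones that passed in a comparison, with 2 of 12 probes in the suffix comparison, where 8.75% of all probes passed, and a median suffix difference of 0.02.

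Upstream of Argonaute, single genes passed. Ddx5 and Ddx17 are helicases that assist the Microprocessor. Ddx5 was 0.41 higher in PPARa-M than in vehicle livers (SE 0.12, adjusted p = 0.0431), and Ddx17 was 0.47 higher in PPARa-M than in PPARa livers (SE 0.13, adjusted p = 0.0309). In each comparison this was 1 of 8 probes, where 6.83% and 10.2% of all probes passed, so that the list as a whole was near the background. Prkra, a double-stranded RNA binding partner of Dicer1, fell in the PPARa-M livers, by a log2 difference of -0.49 from vehicle (SE 0.10, adjusted p = 0.011) and -0.44 from PPARa (SE 0.10, adjusted p = 0.00898), 1 of 14 probes for Dicer partners and loading, which is near the same shares. Of 4 measured export genes 0 passed in any comparison with limma at an adjusted p of 0.05.

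Interferon-stimulated genes, which answer foreign RNA, set PPARa-M mice apart from each other. Of the 21 measured genes of that list 7 were higher in PPARa-M than in vehicle livers, 7 of 22 probes where 6.83% of all probes passed, among them Dhx58 (1.22, SE 0.25, adjusted p = 0.0108) and Eif2ak2 (0.58, SE 0.10, adjusted p = 0.00478). The mean log10 ratio of the list was 0.0381, -0.000764, 0.466 and 0.463 in PPARa-M mice A to D, against a range of -0.0556 to 0.0548 in PPARa mice, -0.0925 to 0.0661 in SEAP-M mice, -0.00645 to 0.025 in GL3 mice and -0.0232 to 0.0516 in vehicle mice. Tnrc6b was at 0.255 and 0.304 in mice A and B, whose list was near 0, and at 0.254 and 0.215 in mice C and D, whose list was high. Without mice C and D, a setting added after seeing the data, Tnrc6b was 0.84 higher in PPARa-M than in vehicle livers (adjusted p = 0.0071) and 1.19 higher than in PPARa livers (adjusted p = 0.000924). Dgcr8 was then 0.99 higher than in vehicle livers (adjusted p = 0.00407) and passed the suffix comparison at 0.52 (adjusted p = 0.00908). Its values in mice C and D were the lower ones, and mice A and B alone stood for PPARa-M. Over all 23493 probes the calls rose in this setting, from 1604 to 3201 against vehicle and from 2056 to 3664 in the suffix comparison. Tnrc6c (0.34, adjusted p = 0.0679 against vehicle) and Dicer1 (0.25, adjusted p = 0.15 against PPARa) lost their calls without these mice. So did Tnrc6a probe 2 against PPARa (0.24, adjusted p = 0.0991), and its difference from vehicle, which had not passed at 0.10, was then -0.04. The part of the interferon response in the differences of the members was not tested.

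**Figure D4:**
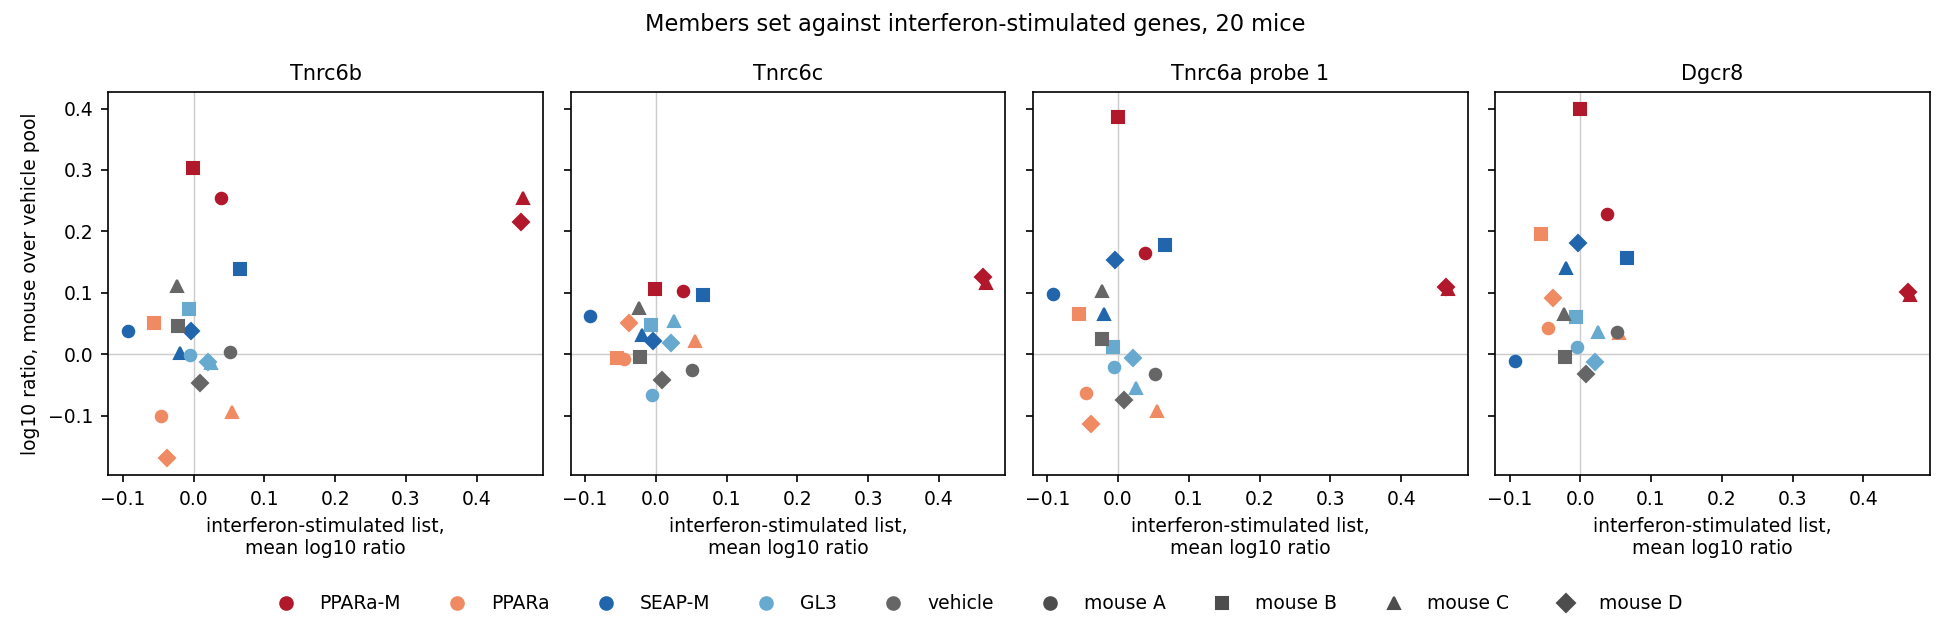
Log10 ratio of Tnrc6b, Tnrc6c, Tnrc6a probe 1 and Dgcr8 (vertical axis) against the mean log10 ratio of 21 interferon-stimulated genes (horizontal axis) in each of 20 mice; colours are groups and symbols are mice A to D. The interferon list stood at 0.466 and 0.463 in PPARa-M mice C and D and near 0 in mice A and B, while Tnrc6b was between 0.215 and 0.304 in all 4.

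Some markers of liver cell types passed the suffix comparison, in which 8.75% of all probes passed. The list medians ran from -1.29 (neutrophil) to 0.19 (stellate cell). No erythroid probe passed it, with a median of -0.29 and 1 of 5 above 0. Against vehicle, 2 probes of the erythroid gene Alas2 were lower in PPARa-M livers (-0.62 and -0.64, adjusted p = 0.0283 and 0.0285). No lymphocyte probe passed the suffix comparison, with a median of -0.02. Of the hepatocyte list, Hnf4a, a defining factor of the hepatocyte, was 0.35 higher with the -M siRNAs at 1 probe (SE 0.06, adjusted p = 0.00418). A second Hnf4a probe was 0.21 higher (adjusted p = 0.034), and Ttr was 0.29 higher (adjusted p = 0.0491). These were 3 of 13 probes and 2 of 6 measured genes, and the median over the 13 probes was 0.05. Ass1 of this list was lower in the mean of the 4 siRNA groups than in vehicle livers (-0.62, SE 0.08, adjusted p = 0.00363). Of the neutrophil list Ngp was lower by a log2 difference of -1.29 (SE 0.39, adjusted p = 0.0446), 1 of 5 with a median of -1.29, and of the macrophage list Adgre1 was lower by -0.35 (adjusted p = 0.027), 1 of 6 with a median of -0.03. Kdr of endothelial cells (0.26), Epcam of bile duct cells (0.32) and Pdgfrb of stellate cells (0.50) were higher, 1 measured gene of 5, 4 and 5 in their lists. The medians of these lists were -0.001, 0.13 and 0.19, with 2 of 5, 3 of 5 and 5 of 8 probes above 0. The mean log10 ratio of the neutrophil list was -0.143 to -0.053 in PPARa-M, -0.077 to 1.07 in PPARa, -0.23 to -0.117 in SEAP-M, -0.0975 to 0.207 in GL3 and -0.114 to 0.0876 in vehicle livers. The part of these cell types in the differences of the members was not tested.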

How the data were processed

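Expression was measured in 20 mouse livers, 1 array each. The authors deposited log10 ratios of mouse to vehicle pool, and how they normalized them is not given in the sources used here. Array medians ran from -0.0093 to 0.006, so the ratios were used as they are. Signal intensities were not used here, hence neither the depth behind a ratio nor a filter on dim probes could be had. Of 469860 values, 40 stand at the limit of 2 or -2, and 0 of these in the members.

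Probes were named by the platform annotation: 18790 carry a single symbol, 65 several and 4638 none. On the log2 scale the 20 arrays entered a single limma model (version 3.58.1, R 4.3.3) with a mean for each group, from which 10 contrasts and an F test were drawn, each Benjamini-Hochberg adjusted over 23493 probes. The 4 mice of a group are separate animals per the labels. The fit was tested on simulated data. Tables and figures were made with Python 3.11.15, pandas 2.3.3 and matplotlib 3.10.9. Every member probe is named. Of the other pathway genes, at most 4 per list and comparison are named by smallest p, and the 3 genes most alike by Pearson's r. The members and lists were chosen with earlier results of these data known. Over all probes the replicate letters showed no pairing of the samples. Deviations from group means correlated at a median r of -0.0178 over 40 pairs of the same letter and 0.00519 over 120 pairs of different letters. Single pairs ran from -0.2 to 0.312 with the same letter and from -0.356 to 0.359 with different letters. A correlation over all probes does not show whether a single probe differs by letter.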

Additional observations from a re-analysis of the deposited data

Results flagged for a closer look

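Of 50 sets of 4 mice (10 probes in 5 groups), 3 held a mouse far from the other 3, where chance flags about 1 set in 20. Tnrc6a probe 3 was at a log10 ratio of 0.0117 in PPARa mouse B, against -0.0779 to -0.0671 in the other PPARa mice. Tnrc6b was at 0.0733 in GL3 mouse B, against -0.0149 to -0.0018 in the others. Ago1 was at -0.0117 in GL3 mouse C, against 0.0345 to 0.0423 in the others. The difference of PPARa-M minus PPARa exceeded that of SEAP-M minus GL3 by a log2 difference of 0.97 for Tnrc6b, a difference between siRNA pairs that passed its own test.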

How the results depend on the processing

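No called difference of a member reversed. The 17 called differences were recomputed under each further setting, those without 1 mouse included, and the call was kept 417 times and lost 108 times. Of PPARa-M minus vehicle, 4 member probes passed, against 0 after quantile normalization, 0 with arrays scaled to one interquartile range, 0 with the compared groups alone, 2 with array quality weights and 1 at a threshold of 0.01. Of PPARa-M minus PPARa, 6 passed, against 2 after quantile normalization, 3 with the groups alone and 3 at 0.01. For the difference of the suffix differences, 1 passed, against 0 after quantile normalization, 0 after scaling and 0 at 0.01. By the F test 4 passed, against 1 after quantile normalization and 2 at 0.01. Of SEAP-M minus GL3 0 passed, against 1 with array quality weights, Tnrc6a probe 3 (0.34, adjusted p = 0.0494). The cause was not tested. Leaving out 1 mouse at a time gave 1 to 4, 3 to 6, 0 to 1 and 2 to 5 member probes for PPARa-M minus vehicle, PPARa-M minus PPARa, the difference of the differences and the F test. Against vehicle in PPARa-M livers, Dgcr8 lost its call in all but 4 of these 20 fits (PPARa-M C and D, PPARa B, SEAP-M A) and Tnrc6a probe 1 in all but 5 (vehicle C, PPARa-M C and D, PPARa B and D), while Tnrc6c lost it without vehicle A, vehicle D or PPARa-M B. In the suffix comparison Tnrc6c lost its call in 11 fits (any 1 PPARa-M mouse, PPARa A, B or C, SEAP-M A or B, GL3 A or D) and Dicer1 in 3 (PPARa C, GL3 A or D). Of PPARa-M minus PPARa, Tnrc6c lost it without any 1 PPARa-M mouse or PPARa A, B or C, Dicer1 without PPARa-M C or D or PPARa B or C, and Tnrc6a probe 2 without PPARa C. With the replicate letter as a replicate block, all 17 calls were kept, with 6 member probes in the suffix comparison. Leaving out PPARa-M mice C and D, chosen after seeing the data, kept 11 of 17.

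Differences that passed no test changed sign. Tnrc6a probe 2 of all siRNAs minus vehicle (-0.043) was 0.07 with 1 value per gene and ran from -0.085 to 0.006 without 1 mouse. Ago4 in that comparison (-0.016) was 0.003 after quantile normalization and 0.006 after scaling, and ran from -0.1 to 0.037. In the suffix comparison Ago1 (0.062) was -0.012 with array quality weights, and Ago4 (-0.011) was 0.023, 0.021 and 0.043 after quantile normalization, scaling and weights, and ran from -0.06 to 0.028.

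Over all probes, the settings that kept all mice and the threshold of 0.05 gave 19 to 1683 calls for PPARa-M minus vehicle (1604), 920 to 2434 for the suffix comparison (2056), 699 to 2504 for PPARa-M minus PPARa (2388), 0 to 231 for SEAP-M minus GL3 (0, with 1129 higher and 1220 lower at an unadjusted limma p under 0.05), 1 to 924 for the difference of the differences (392), 15 to 226 for Ppara minus control siRNAs (60), 9 to 53 for PPARa minus vehicle (39), and 301 to 2085 for the F test (1550). Without 1 mouse these counts were, in the same order, 315 to 1793, 1282 to 2345, 1765 to 2525, 0 to 6, 158 to 474, 33 to 95, 15 to 71 and 957 to 1586. PPARa-M minus vehicle gave 315 calls without vehicle D, 727 without vehicle A and 715 without PPARa-M B, the suffix comparison 1319 without SEAP-M D and 1282 without GL3 D, and the F test 957 without PPARa-M B. At a threshold of 0.01 PPARa-M minus vehicle gave 233 and the suffix comparison 519, and without PPARa-M C and D they gave 3201 and 3664. A filter on dim probes was not run, since no intensities were used.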

Other observations

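Mouse B was the highest of its group for Tnrc6b and for Tnrc6a probe 1 in all 4 siRNA groups, and for Dgcr8 and Tnrc6a probe 2 in 3 of the 4. Among the vehicle mice, mouse C was the highest for Tnrc6b, Tnrc6a probe 1 and Dgcr8. What the letters stand for is not given in the labels.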
